A study of Mus musculus with 8 samples.

Results

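Both haematopoietic stem cell (HSC) libraries with deleted Rxra and Rxrb called 3926 H3K4me1 regions that neither WT library called, out of 181218 merged H3K4me1 regions (2.17%). These gained regions were chosen by the calls of the 4 H3K4me1 peak lists. Overlapping peaks of the 4 lists were merged, and a region was kept when a peak of each RXRKO list overlapped it by at least 1 bp and no WT peak did. Together they covered 2.03 Mb. Since the H3K4me1 calls chose them, their H3K4me1 values are a description with no test. A region without a WT call may still hold H3K4me1 below the calling threshold, and in pooled cells a call cannot tell more cells with the mark from more of the mark per cell.

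CUT&RUN was the assay: an antibody brings a protein A-MNase fusion to nucleosomes that carry the mark, and the DNA cut loose is sequenced. The RXRKO mice had both receptor genes deleted (RxRa∆/∆;RxRb∆/∆) by Vav-Cre, which acts in blood cells, and the WT mice kept them. The sample labels give VavCre+ for WT as well, whereas the design text describes WT as Rxrabfl/fl without Cre, so the genotypes may also differ in Cre. All mice were C57BL/6 and about 10 months old. Bone marrow of 4 or 5 mice was pooled, HSCs were sorted as Lin-cKit+Sca1+CD48-CD150+ cells, and 7500 of them entered each assay. H3K4me1 had 2 RXRKO and 2 WT libraries, and H3K27Ac and H3K4me3 had 1 RXRKO and 1 WT library each. Whether replicates came from separate pools of mice is not stated in the labels, so their spread may be technical.

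H3K4me1 marks enhancers, both poised and active, and the flanks of promoters. H3K27Ac marks the active ones, and H3K4me3 marks promoters. RXR alpha and RXR beta are nuclear receptors that bind DNA as partners of the retinoic acid, vitamin D, thyroid hormone, liver X and PPAR receptors, and they recruit coactivators or corepressors.

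A few gained regions lay on annotated promoters. They overlapped the 250 bp upstream of a RefSeq start in 46 of 32851 windows (0.14%), which belonged to 18 protein-coding and 25 non-coding genes. The 4 windows printed here belong to protein-coding genes and lay wholly inside a gained region, and they were picked from such windows after their values were seen, to show what these sites read like. Rdh1 encodes a retinol dehydrogenase, an enzyme type of retinoic acid synthesis, and Sele encodes the endothelial adhesion molecule E-selectin. Rnf183 encodes a ubiquitin ligase and Muc6 encodes a gastric mucin. The windows are chr10:127759513-127759762 on the plus strand for Rdh1, chr1:164047984-164048233 on the plus strand for Sele, chr4:62434641-62434890 on the minus strand for Rnf183 and chr7:141655394-141655643 on the minus strand for Muc6. The sequences are from RefSeq (GRCm38.p6), 5′ to 3′ on the gene's strand. Capitals mark matches, on either strand, to the AP-1 motif TGACTCA, the GATA motif AGATAA or the nuclear receptor hexamer AGGTCA.
Rdh1: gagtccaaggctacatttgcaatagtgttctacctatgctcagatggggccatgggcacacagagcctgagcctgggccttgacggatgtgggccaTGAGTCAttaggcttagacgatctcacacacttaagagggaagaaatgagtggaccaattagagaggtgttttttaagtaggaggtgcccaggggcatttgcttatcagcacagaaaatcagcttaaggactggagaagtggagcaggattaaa
Sele: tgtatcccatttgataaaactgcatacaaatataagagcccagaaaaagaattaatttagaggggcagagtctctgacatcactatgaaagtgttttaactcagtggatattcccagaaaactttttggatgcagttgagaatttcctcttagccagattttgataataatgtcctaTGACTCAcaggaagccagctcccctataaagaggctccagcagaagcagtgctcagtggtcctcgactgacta
Rnf183: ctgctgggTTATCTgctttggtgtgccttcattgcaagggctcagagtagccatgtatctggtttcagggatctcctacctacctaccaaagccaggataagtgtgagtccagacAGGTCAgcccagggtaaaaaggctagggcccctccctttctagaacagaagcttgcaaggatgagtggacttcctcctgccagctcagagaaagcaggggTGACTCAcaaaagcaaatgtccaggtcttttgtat
Muc6: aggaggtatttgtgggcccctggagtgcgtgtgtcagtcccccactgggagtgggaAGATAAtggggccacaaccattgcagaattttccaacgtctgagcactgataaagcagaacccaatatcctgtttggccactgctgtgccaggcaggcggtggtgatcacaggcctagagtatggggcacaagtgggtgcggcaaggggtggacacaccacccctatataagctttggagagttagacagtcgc

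The printed windows held an AP-1 match in Rdh1, Sele and Rnf183, a GATA match in Rnf183 and Muc6, and a nuclear receptor hexamer in Rnf183. Over all 46 windows the hexamer AGGTCA stood in 13.0%, against 14.0% of all windows. Direct repeats of that hexamer with 1, 4 or 5 bases between the copies stood in 0 of the 46 and in 11, 5 and 3 of the 32851. The AP-1 motif stood in 15.2% of the 46, against 4.46% of all windows, and the GATA motif in 26.1%, against 9.99%. The E-box CACGTG stood in 0 of the 46, against 6.02% of all windows. The RUNX motif TGTGGT stood in 15.2%, against 14.0%, and the ETS motif CCGGAAGT in 2.17%, against 2.88%. All motifs were searched on both strands, some of the 46 windows overlap each other, and a match describes letters and not a bound site. The search took the whole 250 bp, also where a gained region covered only part of it. At LOC115488350 and Gm31985 it covered 13 and 58 bp, and the AP-1 match lay outside. The GATA match lay outside at Gm31985, and also at Gkn1, Gm40460 and Cybb, where it covered 125, 132 and 145 bp. The shares thus describe the windows and not the gained regions.

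The marks on these promoters differed from gene to gene. Rdh1 had H3K4me1 folds of 2.23 and 2.47 in RXRKO replicates 1 and 2, an H3K27Ac fold of 3.73 and an H3K4me3 fold of 2.86 in RXRKO. Sele had H3K4me1 folds of 4.65 and 5.29 and an H3K4me3 fold of 2.73 in RXRKO. Neither region had a peak in any WT library. Rnf183 had H3K4me1 folds of 4.12 and 4.56 in RXRKO, and Muc6 had 3.72 and 4.70, and neither had H3K27Ac or H3K4me3 in RXRKO or WT. The gained region at the start of Olfm3, which encodes an olfactomedin, covered 52 of its 250 bp and had H3K4me1 folds of 3.58 and 8.23 and an H3K4me3 fold of 5.34 in RXRKO, with no WT peak. At Dio2, which encodes a deiodinase that activates thyroid hormone, the other marks were shared, with an H3K27Ac fold of 3.94 in RXRKO and 4.05 in WT and an H3K4me3 fold of 7.61 in RXRKO and 6.91 in WT.

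The libraries differed in ways that touch these counts. RXRKO replicates 1 and 2 had 147698 and 165128 H3K4me1 peaks, which covered 109.8 and 133.3 Mb. WT replicates 1 and 2 had 149377 and 159713, which covered 112.5 and 117.8 Mb. Read depth is unknown, since the lists give no counts. The weakest peaks called (-log10 q under 2) had a median fold of 2.09 and 1.76 in the RXRKO replicates and of 2.27 and 2.03 in the WT replicates. RXRKO replicate 2 thus had the longest list, the most covered bases and the lowest fold among its weakest calls. By the run tag of each peak name, both replicate 1 libraries of H3K4me1 came from 1 run and the other 6 libraries from another. Of the HSC markers with a start in the table used, 8 of 8 had H3K4me3 within 1 kb of it in RXRKO and 8 of 8 in WT. Granulocyte and monocyte markers had it at 0 of 7 in RXRKO and WT, B cell markers at 0 of 2, and T cell markers at 1 of 4 in RXRKO and 0 of 4 in WT. Endothelial and stromal markers had it at 2 of 2 in RXRKO and WT, and markers of tissues other than blood at 1 of 4 (Syt1) in RXRKO and WT, so H3K4me3 at a start does not mark the cell type alone. H3K4me1 peaks covered 580 and 738 bp of Rxrb in RXRKO, against 1391 and 1431 bp in WT. They covered 22567 and 25320 bp of Rxra in RXRKO, against 21563 and 24413 bp in WT, so the calls do not show that deletion. No gained region lay within 20 kb of Rxra or Rxrb.

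Other sets of libraries also had regions of their own. Regions called by the WT pair and by no RXRKO library numbered 3514 and are named lost here. Both replicate 1 libraries alone called 1677, both replicate 2 libraries alone called 7080, RXRKO 1 with WT 2 called 1059, and RXRKO 2 with WT 1 called 2441. The RXRKO pair thus shared fewer regions of its own than the replicate 2 pair and more than each of the other 4 pairs. All 4 libraries called 112071 regions. The number of gained regions depended on each library, and with the peaks merged anew it was 20506 when RXRKO replicate 1 was left out, 7724 when RXRKO replicate 2 was, 8472 when WT replicate 1 was and 8470 when WT replicate 2 was.

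**Figure D1:**
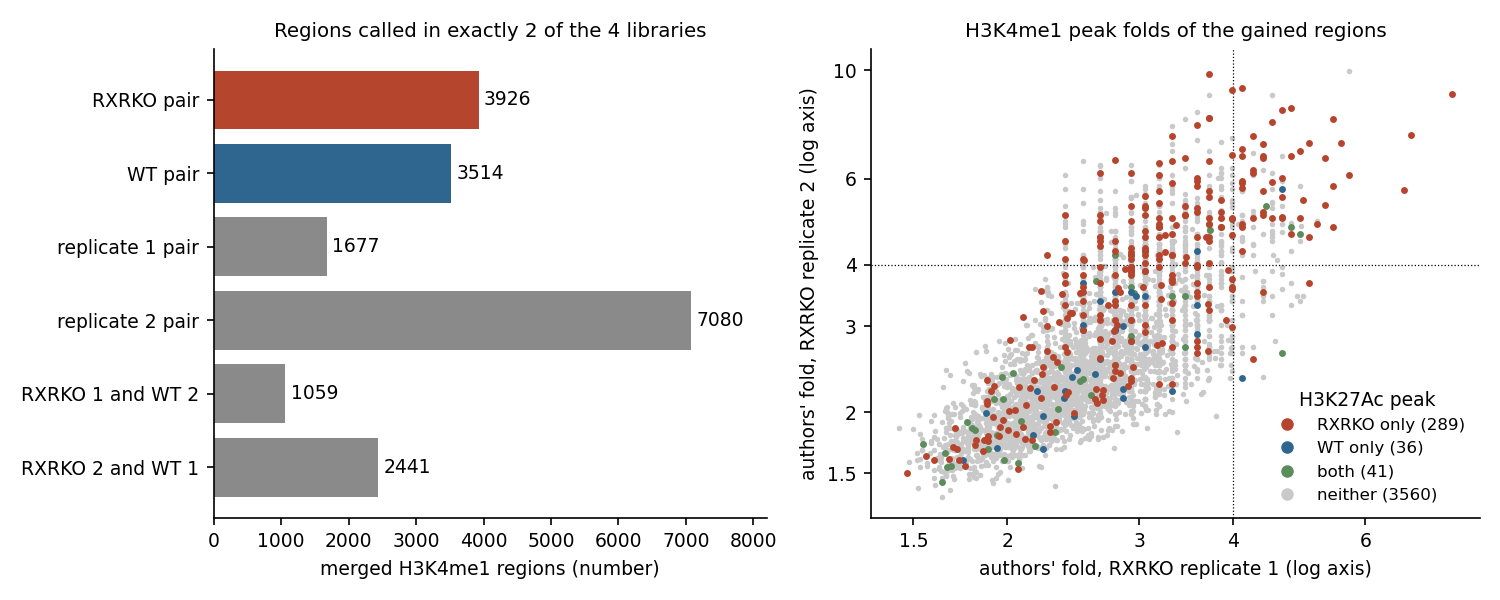
The left panel gives the number of merged H3K4me1 regions called in exactly 2 of the 4 libraries, with 3926 for the RXRKO pair, 3514 for the WT pair and 7080 for the replicate 2 pair. The right panel plots each gained region by the authors' fold in RXRKO replicates 1 and 2 on log axes, coloured by its H3K27Ac peak, with dotted lines at a fold of 4, and 46 of the 100 regions above and to the right of them have H3K27Ac in RXRKO only.

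The replicates can be read against each other, since each H3K4me1 run held both genotypes. Of the 12339 regions that replicate 1 called in RXRKO and not in WT, replicate 2 called 3926 in RXRKO only, 1059 in WT only, 4394 in both and 2960 in neither. That is 3.71 RXRKO-only calls per WT-only call, against 0.695 over the 15999 regions that replicate 1 called in WT and not in RXRKO, 1.48 over those it called in both and 1.81 over those it called in neither. In the other direction, replicate 2 called 26683 regions in RXRKO and not in WT, and replicate 1 called 3926 of these in RXRKO only and 2441 in WT only, or 1.61 to 1. This ratio was 0.301 over the regions that replicate 2 called in WT and not in RXRKO, 0.835 over those it called in both and 0.619 over those it called in neither. The 3926 in these ratios are the gained regions themselves, so the ratios describe the selection and are no support for it.

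The folds of the gained regions were low. A fold is the authors' ratio of a peak over the background of their peak caller, and it ranks peaks within 1 list. Its median over the gained regions was 2.66 in RXRKO replicate 1 (from 1.43 to 7.83) and 2.55 in RXRKO replicate 2 (from 1.34 to 10.00). Over the regions called in all 4 libraries, the RXRKO medians were 4.12 and 4.12. The median -log10 q was 4.74 in replicate 1 and 8.11 in replicate 2. At the edge of the rule, 52 gained regions had an RXRKO -log10 q under 2, the lowest at 1.51. Just outside it, 8651 regions were called in both RXRKO libraries and in 1 WT library, and in 46 of them the WT -log10 q was under 2, the lowest at 1.60. The weakest WT calls had a median fold of at most 2.27. Both RXRKO folds were above this on 2358 gained regions (60.1%), and neither was on 883. Of the lost regions, 86.1% had both WT folds above the matching RXRKO value of 2.09. Folds rank peaks within 1 list, so this comparison across lists is rough. The part of calling sensitivity was not tested.

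Gained regions were also narrow. Their median width was 438 bp (quartiles 336 and 626 bp), against 402 bp for the lost regions and 1056 bp for those called in all 4 libraries. They were spread over the chromosomes, from 1.88% of the merged regions of chromosome 8 to 2.34% of those of chromosome 6.

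The clearest gained regions were mostly sites of about 1 kb where RXRKO carried more than 1 mark and WT had no peak. Of the 15 regions with the highest -log10 q in the weaker RXRKO library, 12 had H3K27Ac in RXRKO only, 0 had it in WT, and 5 had H3K4me3 in RXRKO only. The region chr5:67184567-67185887 lay 74677 bp from Tmem33, which encodes a membrane protein of the endoplasmic reticulum. It had H3K4me1 folds of 7.83 and 8.94 in RXRKO replicates 1 and 2, an H3K27Ac fold of 3.85 and an H3K4me3 fold of 4.43 in RXRKO. Its nearest WT H3K4me1 peak was 24147 bp away. The region chr2:125543216-125544674 lay 5189 bp from Cep152, which encodes a scaffold of centriole duplication, and had H3K4me1 folds of 6.75 and 5.70 and an H3K27Ac fold of 3.85 in RXRKO. No WT peak of any mark lay within 15 kb of the centre of either site. The region chr13:102755774-102756988 inside the microtubule-associated kinase gene Mast4 had H3K4me1 folds of 6.90 and 7.37, an H3K27Ac fold of 4.69 and an H3K4me3 fold of 4.56 in RXRKO. It stood between shared peaks, 4646 bp from the nearest WT H3K4me1 peak.

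Several of the 15 lay far from genes, and 5 had no protein-coding gene within 100 kb. The region chr18:47662086-47663126 had H3K4me1 folds of 5.71 and 6.11, an H3K27Ac fold of 8.14 and an H3K4me3 fold of 3.51 in RXRKO. Its H3K27Ac fold was the highest among the 289 gained regions with H3K27Ac in RXRKO only. The region chr14:45764048-45765045 had H3K4me1 folds of 5.44 and 5.81, an H3K27Ac fold of 7.31 and an H3K4me3 fold of 3.77 in RXRKO, and lay 7259 bp from shared H3K4me1 peaks. The region chr16:84378047-84379025 had H3K4me1 folds of 5.44 and 4.78 and an H3K27Ac fold of 5.59. The region chr3:49199455-49200182, which lay 324919 bp from any WT H3K4me1 peak, had H3K4me1 folds of 5.31 and 5.32 and an H3K27Ac fold of 4.82. These 4 had no WT peak of either mark on them. By contrast, chr10:91881015-91882216, with H3K4me1 folds of 5.71 and 10.00, had neither H3K27Ac nor H3K4me3 in RXRKO or WT.

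Among the others, the site 55182 bp from Plekhg1 had H3K4me1 folds of 5.44 and 7.94 and an H3K27Ac fold of 4.62 in RXRKO. The site 7263 bp from the nucleoside transporter gene Slc28a2 had H3K4me1 folds of 5.18 and 4.85 and an H3K27Ac fold of 5.20. The site 58200 bp from the transporter gene Abcc12 had H3K4me1 folds of 5.31 and 6.62, an H3K27Ac fold of 3.66 and an H3K4me3 fold of 2.47. A site 40495 bp from the phospholipid flippase gene Atp11a and a site inside the axonemal dynein gene Dnah8 also had H3K27Ac in RXRKO only. A site inside Mei4, which acts in meiotic recombination, and a site 58027 bp from the tropomyosin gene Tpm1 had neither other mark. The distance from the 15 regions to the nearest WT H3K4me1 peak ran from 1058 bp near Tpm1 to 324919 bp, with a median of 8321 bp.

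**Figure D2:**
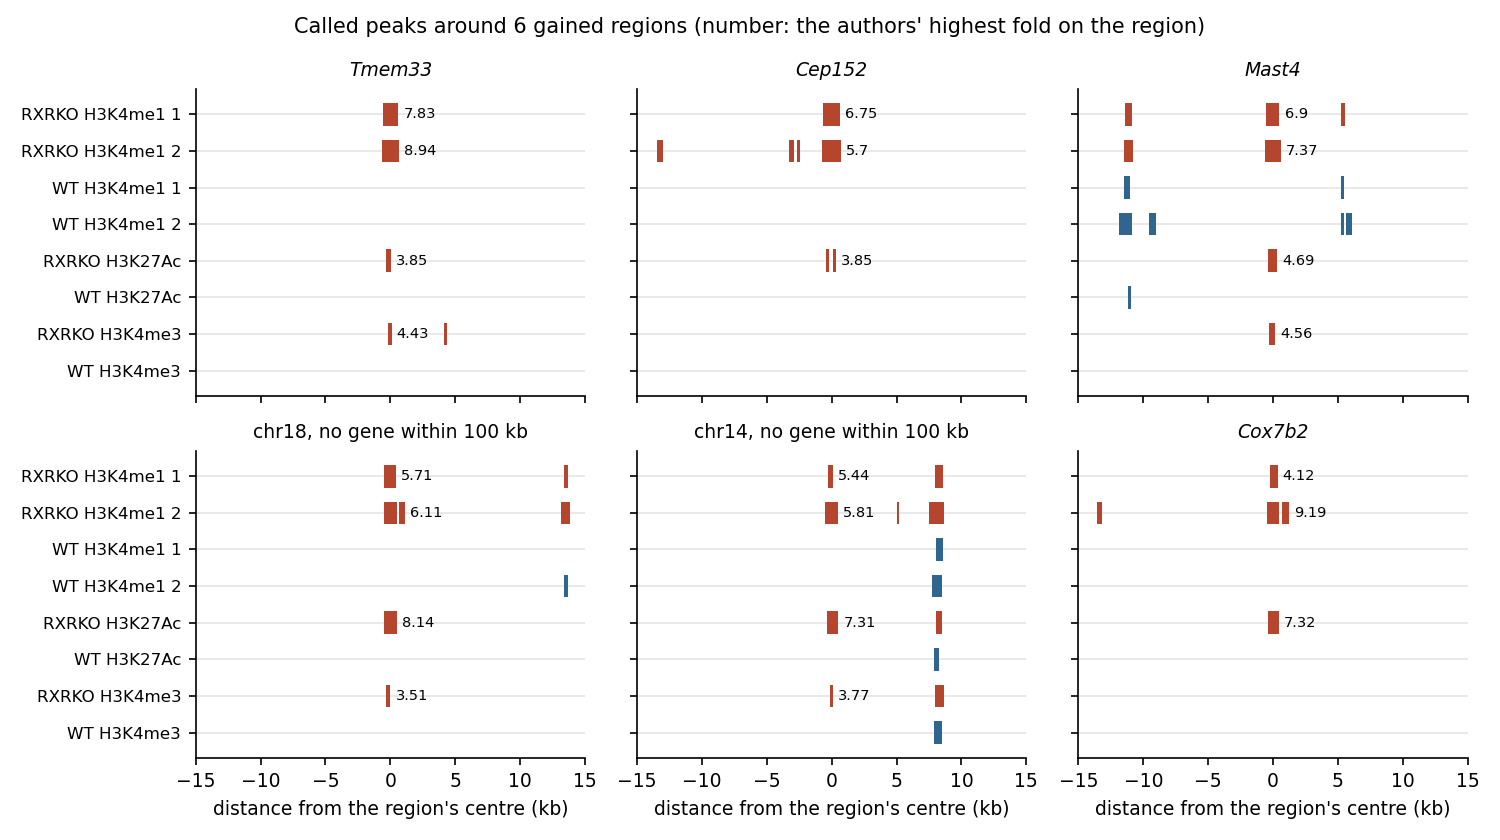
Each panel shows the called peaks of the 8 libraries around 1 gained region, with RXRKO peaks in red above the WT peaks of the same mark in blue, the distance from the region's centre in kb on the x axis, and the authors' highest fold on the region beside it. In all 6 panels both RXRKO H3K4me1 libraries and the RXRKO H3K27Ac library have a peak at the centre and no WT library does.

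A fold of at least 4 in both RXRKO libraries was reached by 100 gained regions (2.55%). H3K27Ac was in RXRKO only on 46 of them, in WT only on 1 and in both on 3. H3K4me3 was in RXRKO only on 14, and 11 had both marks in RXRKO only. Their median width was 953 bp and their median distance to a WT H3K4me1 peak was 11744 bp. Inside a protein-coding gene lay 38, more than 20 kb from any lay 50, and 28 had none within 100 kb. A few are named here after their values were seen. The region 8517 bp from Cdc25a, which encodes a phosphatase that activates cyclin-dependent kinases, had H3K4me1 folds of 4.12 and 5.95, an H3K27Ac fold of 4.62 and an H3K4me3 fold of 2.99 in RXRKO. The region inside Cav1, the caveolin gene, had H3K4me1 folds of 4.65 and 5.51 and an H3K27Ac fold of 3.47. The region 60037 bp from Jag1, which encodes a Notch ligand, had H3K4me1 folds of 4.58 and 4.10. The region 11323 bp from the homeobox gene Hopx had 4.51 and 6.17. Neither region had another mark in RXRKO or WT. Among the lost regions, 177 had a fold of at least 4 in both WT libraries, and of these 0 had H3K27Ac in RXRKO only and 44 in WT only.

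H3K27Ac did not choose the gained regions, although its libraries shared a run with the replicate 2 H3K4me1 libraries, which helped to choose them. It had 1 library per genotype and no test. It was in RXRKO only on 289 gained regions (7.36%), in WT only on 36 (0.917%), in both on 41 and in neither on 3560. Over all merged regions it was in RXRKO only on 4.66% and in WT only on 8.87%. The lean on the gained regions was thus opposite to that of all merged regions. On the lost regions it was in RXRKO only on 25 (0.711%) and in WT only on 256 (7.29%).

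The run of a library also went with these calls. Regions of RXRKO 2 with WT 1 had H3K27Ac in RXRKO only on 86 and in WT only on 37. Regions of RXRKO 1 with WT 2 had it in RXRKO only on 9 and in WT only on 45. Both times the lean followed the genotype of the replicate 2 library, which shared its run with the H3K27Ac libraries. With the peaks of replicate 1 alone merged anew, which came from the other run, the 14517 regions called in RXRKO and not in WT had H3K27Ac in RXRKO only on 663 and in WT only on 499. With those of replicate 2 alone merged anew, the 28697 such regions had it in RXRKO only on 1131 and in WT only on 332. Both sets hold the gained regions themselves. Of the other regions with an RXRKO call and no WT call in replicate 1, those of RXRKO 1 alone had H3K27Ac in RXRKO only on 42 and in WT only on 44, and those of the RXRKO pair and WT 2 on 224 and 296. In replicate 2, those of RXRKO 2 alone had it in RXRKO only on 311 and in WT only on 163, and those of the RXRKO pair and WT 1 on 364 and 64. Outside the gained regions WT-only calls were thus the more numerous in replicate 1, though barely on RXRKO 1 alone, and RXRKO-only calls in replicate 2. WT-only calls were also the more numerous over all merged regions, at 16075 against 8452 RXRKO-only calls. Most of these lay on regions called in all 4 H3K4me1 libraries, with 13395 WT-only and 6683 RXRKO-only calls. The part of the run in the calls on the gained regions was not tested. The number 289 was 624 when RXRKO replicate 1 was left out, 372 when RXRKO replicate 2 was, 661 when WT replicate 1 was and 521 when WT replicate 2 was, and RXRKO-only calls outnumbered WT-only calls in each of these.

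The RXRKO H3K27Ac peaks on the 289 regions had a median fold of 3.47 (quartiles 2.90 and 4.04), against 3.85 over the whole RXRKO H3K27Ac list. On regions with H3K4me1 in all 4 libraries it was 3.27 where H3K27Ac was in RXRKO only and 4.20 where it was in both genotypes. On 275 of the 289 (95.2%) the RXRKO H3K27Ac peak overlapped no WT H3K27Ac peak along its whole length. This count was chosen after the data were seen. Over all merged regions with H3K27Ac in RXRKO only the share was 95.3%, so it was not particular to the gained regions. The 289 regions had median H3K4me1 folds of 3.05 and 3.91 in RXRKO replicates 1 and 2, against 2.66 and 2.50 in the 3560 regions without H3K27Ac. They were also wider, with a median of 749 bp against 426 bp, and 34.9% lay more than 20 kb from a protein-coding gene, against 24.5%.

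The 10 gained regions with H3K27Ac in RXRKO only that had its highest -log10 q were of 2 kinds. For 6 of them, at Ell2, Slc7a15, Fbxo8, Tmem256, Gm12250 and Zfp292, the region was the flank of an element that WT also had. Near Ell2, which encodes a transcription elongation factor, the H3K27Ac peak was chr13:75797437-75799136 with a fold of 6.13 in RXRKO and chr13:75797375-75799012 with a fold of 4.64 in WT. The gained region chr13:75799072-75799408 lay 26710 bp from Ell2, met only the end of the RXRKO peak and began 59 bp past the WT peak. At Fbxo8, an F-box protein gene, the H3K27Ac fold was 6.10 in RXRKO and 6.13 in WT, and the WT peak stopped 187 bp short of the gained region. The other 4 stood apart, namely the chromosome 18 and chromosome 14 sites above, a site inside Iftap and a site 31388 bp from Cox7b2. Cox7b2 encodes a cytochrome c oxidase subunit. The Cox7b2 site chr5:71410501-71411434 had H3K4me1 folds of 4.12 and 9.19 and an H3K27Ac fold of 7.32 in RXRKO. Its nearest WT peaks were 90716 bp away for H3K4me1 and 96411 bp away for H3K27Ac.

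H3K4me3 was called on few gained regions. It was in RXRKO only on 98 (2.50%), in WT only on 6 (0.153%), in both on 82 and in neither on 3740. Over all merged regions it was in RXRKO only on 6.82% and in WT only on 1.33%, so RXRKO-only calls led there as well, and the RXRKO list was the longer, with 58136 peaks against 47835 in WT. On the lost regions it was in RXRKO only on 18 and in WT only on 69. Both H3K27Ac and H3K4me3 were in RXRKO only on 40 gained regions. The number 98 was 340 when RXRKO replicate 1 was left out, 143 when RXRKO replicate 2 was, 265 when WT replicate 1 was and 269 when WT replicate 2 was. It was 48 with the same number of H3K4me3 peaks from each genotype.

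The 5 gained regions with H3K4me3 in RXRKO only that had its highest -log10 q lay in Tbl2, Exoc3, Tc2n, Mettl4 and Dnajc5, and all 5 were flanks of H3K4me3 that WT shared. At Exoc3, which encodes an exocyst subunit, the H3K4me3 fold was 11.4 in RXRKO and 11.4 in WT, and the WT peak stopped 16 bp short of the region. At Mettl4, a methyltransferase gene, it was 11.5 in RXRKO and 10.2 in WT, and the WT peak stopped 49 bp short. At Dnajc5, which encodes a chaperone of synaptic vesicles, it was 7.47 in RXRKO and 7.55 in WT, with a gap of 69 bp. On 82 of the 98 regions (83.7%) the RXRKO H3K4me3 peak overlapped no WT H3K4me3 peak. This was a lower share than the 96.7% over all merged regions with H3K4me3 in RXRKO only.

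**Figure D3:**
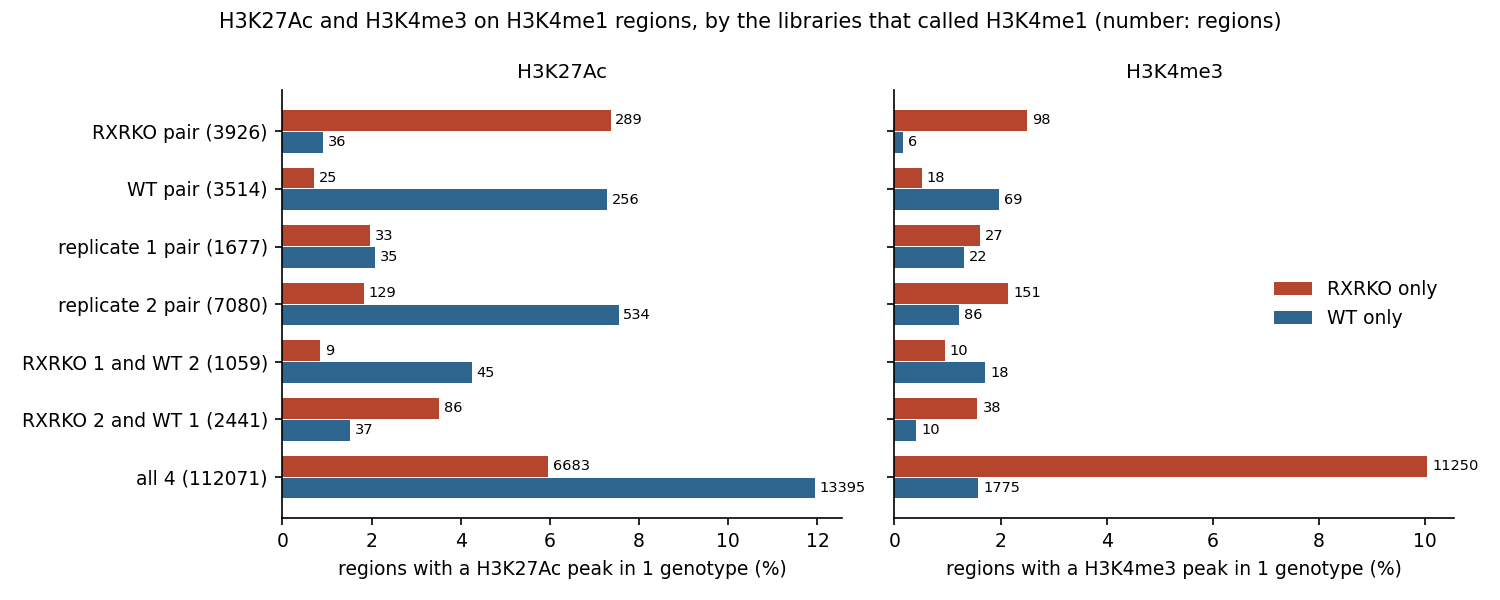
The bars give the percentage of regions with an H3K27Ac peak (left) or an H3K4me3 peak (right) in RXRKO only (red) or WT only (blue), for regions grouped by the H3K4me1 libraries that called them, with the number of regions of each group in brackets and of marked regions beside each bar. The RXRKO pair has 289 against 36 regions for H3K27Ac and 98 against 6 for H3K4me3, and the WT pair has 25 against 256 and 18 against 69.

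The distance from a gained region to the nearest WT H3K4me1 peak had a median of 1835 bp (quartiles 496.5 and 6113.5 bp). At most 500 bp from a WT peak lay 985 gained regions (25.1%), farther but at most 2000 bp away lay 1055, farther but at most 10 kb away lay 1217, and beyond 10 kb lay 669 (17.0%). From the nearest class to the farthest, the median fold was 2.27, 2.38, 2.86 and 3.05 in RXRKO replicate 1 and 2.13, 2.24, 2.87 and 3.60 in replicate 2. H3K27Ac was in RXRKO only on 4.06%, 4.46%, 7.81% and 16.0% of these classes. The median widths of these classes were 379, 404, 483 and 626 bp. Regions farther from WT peaks were thus wider, had higher folds and more often had H3K27Ac, and the part of width was not tested. H3K4me3 in RXRKO only had no such order, at 2.44%, 3.03%, 2.05% and 2.54%. The share inside a protein-coding gene was 68.3%, 65.1%, 59.9% and 39.5%, and the share more than 20 kb from any was 15.4%, 18.6%, 23.9% and 50.7%. The farthest regions were thus the ones most often away from genes. Of those beyond 10 kb, H3K27Ac was in RXRKO only on 107 and in WT only on 4. Of the lost regions beyond 10 kb from an RXRKO peak, it was in RXRKO only on 0 and in WT only on 51 (10.0%).

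**Figure D4:**
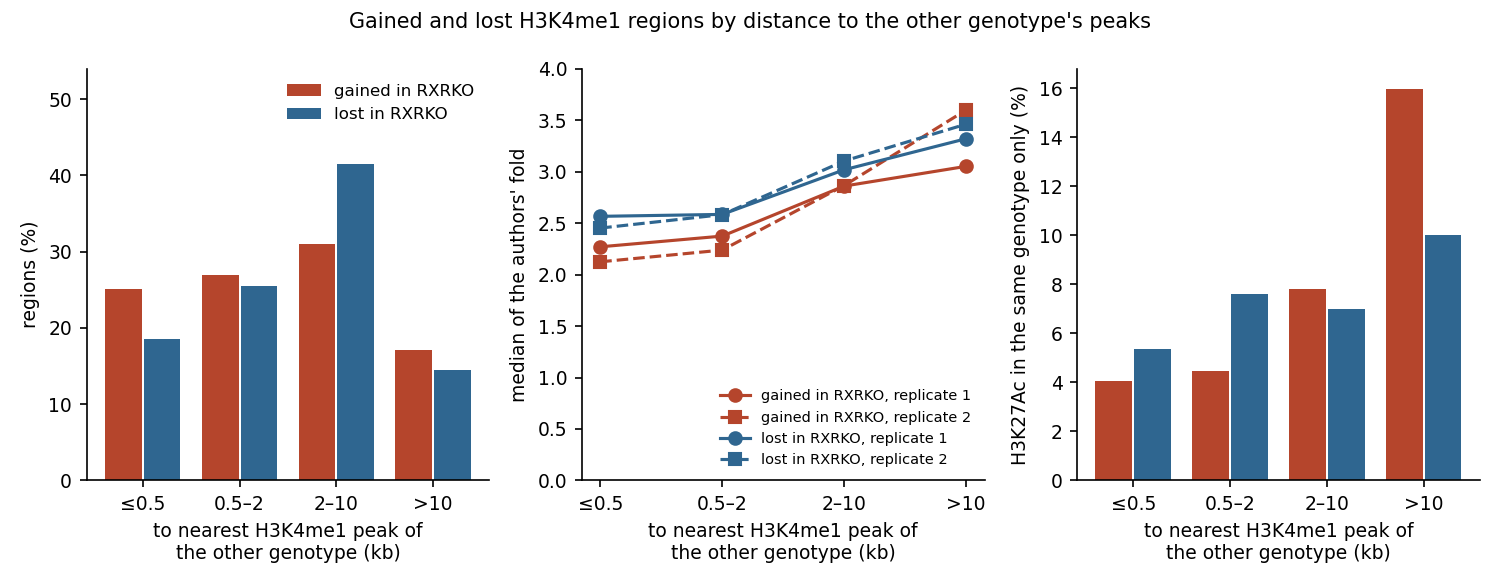
Regions gained in RXRKO (red) and lost in RXRKO (blue) are grouped by the distance in kb to the nearest H3K4me1 peak of the other genotype. The panels give the percentage of regions per class, the median of the authors' fold per replicate, and the percentage with H3K27Ac in the same genotype only, which is 16.0% for gained and 10.0% for lost regions beyond 10 kb.

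Gained and lost regions both lay near starts less often than merged regions at large. Of 3793 on chromosomes with starts in the table used, 159 (4.19%) lay within 1 kb of a RefSeq start, against 4.71% of the lost regions and 12.1% of all merged regions. Inside protein-coding genes lay 2353 (59.9%), against 55.2% of the lost and 61.8% of all merged regions. More than 20 kb from any lay 978 (24.9%), against 26.9% of the lost and 21.7% of all merged regions. The 10 widest gained regions spanned 1765 to 2303 bp and lay 14429 to 1053140 bp from the nearest WT H3K4me1 peak. Of these, 7 had H3K27Ac in RXRKO only and 0 had it in WT. The widest, chr7:47514985-47517287, lay 25402 bp from Mrgpra2b, a sensory neuron receptor gene, and had H3K4me1 folds of 3.98 and 4.98 and an H3K27Ac fold of 3.66 in RXRKO. The region 39259 bp from Lin7a, which encodes a polarity scaffold, had H3K4me1 folds of 3.72 and 6.54 and an H3K27Ac fold of 5.61. The one inside the ephrin receptor gene Epha3 had an H3K27Ac fold of 3.27. The regions inside the neurotrophin receptor gene Ntrk3, inside Cytl1 and 73613 bp from Mtcl1 had neither other mark in RXRKO or WT.

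Some gained regions came in groups. Of the windows of 100 kb that held any, 2803 held 1, 433 held 2, 67 held 3, 10 held 4, 2 held 5 and 1 held 6. The window chr5:3400001-3500000 in the cyclin-dependent kinase gene Cdk6 held 6 gained and 1 lost among 40 merged regions. The window chr11:47200001-47300000 in Sgcd, which encodes a sarcoglycan of muscle, held 5 gained and 0 lost among 7. The window chr3:153100001-153200000 in the sialyltransferase gene St6galnac3 held 5 gained and 0 lost among 11. The Sgcd window was thus mostly gained regions, while that of Cdk6 also held 17 regions called in all 4 libraries. In Sgcd, chr11:47221329-47222088 had H3K4me1 folds of 4.91 and 5.81 in RXRKO and lay 49783 bp from the nearest WT H3K4me1 peak. A second region, chr11:47294570-47295221, had H3K4me1 folds of 4.78 and 6.69 and an H3K27Ac fold of 4.43 in RXRKO.

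A gained region lay in the body of a protein-coding gene or within 20 kb of it for 3282 of 21631 genes (15.2%), and a lost region for 2832 (13.1%). Both kinds occurred at 737 genes, which are 22.5% of the genes with gained and 26.0% of those with lost regions. The number 3282 was 9764 when RXRKO replicate 1 was left out, 6078 when RXRKO replicate 2 was, 6168 when WT replicate 1 was and 6372 when WT replicate 2 was. The genes with most gained regions were Prkg1, a cGMP-dependent kinase gene, Cdk6, Dach1 and Mecom, with 7 each. Mecom encodes the transcription factor EVI1, which HSCs need. Its 7 gained regions stood beside 3 lost ones among 163 merged regions, had H3K4me1 folds of 1.94 to 3.02 in RXRKO replicate 1 and 1.99 to 2.82 in replicate 2, and had neither other mark. Cdk6, which drives HSCs out of quiescence, had 7 gained and 1 lost among 79, and the highest H3K4me1 folds were 3.45 and 4.19, at chr5:3441656-3441988. One Cdk6 region had H3K4me3 in RXRKO only, with a fold of 3.17, and none had H3K27Ac.

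Of the 5 genes with 6 gained regions, Kcnb2 and Babam2 had 0 lost ones. The potassium channel gene Kcnb2 had its 6 among 47 merged regions, and they were 832 to 1033 bp wide. Its region chr1:15565865-15566884 had H3K4me1 folds of 3.72 and 5.51 and an H3K27Ac fold of 3.47 in RXRKO. Babam2, which encodes a subunit of a BRCA1 complex, had its 6 among 83. Its region chr5:31935744-31936373 had H3K4me1 folds of 4.38 and 5.15, an H3K27Ac fold of 3.82 and an H3K4me3 fold of 3.77 in RXRKO, although a WT H3K4me1 peak lay 499 bp away. Long genes with many H3K4me1 regions have more chances to hold one. The share of merged regions that were gained ran from 4.29% in Mecom to 14.3% in Gas7 among the 10 genes with most.

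Gene lists are described by the number of genes with a gained region within 20 kb and by the share of their merged regions that were gained, which was 2.08% near all protein-coding genes, where 1.81% were lost. Of 33 genes known as targets of RXR and its partners, 3 had a gained region and 12 a lost one, and 0.733% of their merged regions were gained and 4.65% lost. The 3 were Mylip, a ubiquitin ligase gene induced by liver X receptors, Rarb, which encodes retinoic acid receptor beta, and Dhrs3, which encodes a retinaldehyde reductase. Their RXRKO H3K4me1 folds were 2.96 and 2.93 at Mylip, 2.72 and 2.43 at Rarb, and 1.67 and 1.54 at Dhrs3, with neither other mark in RXRKO or WT. Of 41 nuclear receptor genes, 12 had a gained and 12 a lost region, with 2.07% gained and 2.77% lost. H3K27Ac was in RXRKO only on gained regions of Esrrg, Rarg and Rora. In Esrrg, an orphan receptor gene, the region had H3K4me1 folds of 2.79 and 3.38 and an H3K27Ac fold of 3.27 in RXRKO and lay 27767 bp from the nearest WT H3K4me1 peak. In Rarg, which encodes retinoic acid receptor gamma, the region had H3K4me1 folds of 1.89 and 1.79 and an H3K27Ac fold of 2.63 and lay 127 bp from one. Sites near WT peaks, as at Rarg, were thus found beside isolated ones, as at Esrrg.

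Of 14 genes of the MYC family and its partners, 3 had a gained and 2 a lost region, with 3.61% of merged regions gained and 1.20% lost. They were Mga, Mlxip and Mlxipl with 2 gained regions each, and the one of Mlxipl with H3K4me3 in RXRKO only is the flank at Tbl2 given above. Of 40 MYC targets, 10 had a gained and 2 a lost region, and 3.43% of their merged regions were gained and 0.571% lost. They included Ncl, Nop58, Nop2, Wdr43 and Ddx21, which act in ribosome assembly, and the chaperone genes Hspd1 and Hspe1, which share a region. The region near Ddx21, with H3K4me1 folds of 4.12 and 2.35 in RXRKO, had H3K27Ac in WT only. Of 34 cell cycle genes, 4 had a gained and 4 a lost region, and Cdk6 held 7 of the list's 10 gained regions. Of 29 genes of quiescence and cell cycle brakes, 5 had a gained and 10 a lost region, with 1.68% gained and 2.52% lost. They included Rb1 with 3 gained regions, Foxo1 with 2, and Btg1 and Btg2 with 1 each.

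HSC identity genes held many H3K4me1 regions, with a median of 21 per gene against 8 over all genes, and 20 of 36 had a gained and 13 a lost region. Of their merged regions 2.80% were gained and 1.67% lost. Besides Mecom these were Etv6, Meis1 and Fgd5 with 4 gained regions each, Ctnnal1 with 3, Msi2 and Mllt3 with 2, and 13 genes with 1, where Hoxa9 and Hoxa10 share a region and so do Hoxb4 and Hoxb5. Several were weak, with RXRKO H3K4me1 folds of 1.66 and 1.66 at Runx1, 1.62 and 1.53 at Erg and 1.62 and 1.55 at Prdm16, all transcription factor genes. In Meis1, a homeobox gene, chr11:19013140-19013476 had H3K4me1 folds of 2.08 and 2.25, an H3K27Ac fold of 1.84 and an H3K4me3 fold of 1.41 in RXRKO only. Another gained region of Meis1 had H3K27Ac in WT only. In Fgd5, an HSC marker gene, chr6:91990673-91991229 had H3K4me1 folds of 1.60 and 1.60 and an H3K27Ac fold of 2.05 in RXRKO only. These H3K27Ac folds were below the lower quartile of the 289 regions.

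Among genes of mature blood cells, 11 of 25 erythroid and megakaryocyte markers had a gained region and 2 a lost one, and 4.63% of their merged regions were gained and 0.772% lost. Of 26 lymphocyte markers, 2 had a gained region, Ikzf1 and Cd79a, and 11 a lost one, with 0.687% gained and 3.78% lost. Of 25 granulocyte and monocyte markers, 3 had a gained and 5 a lost region, with 1.47% gained and 2.94% lost. In the carbonic anhydrase gene Car2, a region had H3K4me1 folds of 1.95 and 1.78 and an H3K27Ac fold of 1.90 in RXRKO only. H3K4me3 was called on this region in both RXRKO and WT. In Ank1, which encodes the ankyrin of red cells, a region had H3K4me1 folds of 3.19 and 4.78 and H3K27Ac in WT only. The other marks were thus not all on the side of RXRKO. The region near the platelet glycoprotein gene Gp9 had H3K4me1 folds of 4.51 and 3.45, and that shared by the platelet chemokine genes Pf4 and Ppbp had 2.15 and 2.88, with neither other mark. Among the markers with a start in the table used, H3K4me3 was at 2 of 3 megakaryocyte markers in RXRKO and WT and at 1 of 3 erythroid markers in RXRKO and WT. The part of other cells in these counts was not tested.

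Genes of other tissues also had gained regions. Of 32 neuronal genes, 12 had a gained and 8 a lost region, and 2.90% of their merged regions were gained and 1.19% lost. In Nlgn1, which encodes a synaptic adhesion protein, chr3:25734246-25735025 had H3K4me1 folds of 3.32 and 6.54 and an H3K27Ac fold of 4.82 in RXRKO. In Dlg2, a synaptic scaffold gene with 5 gained regions, chr7:91901908-91903079 had H3K4me1 folds of 3.58 and 5.81 and an H3K27Ac fold of 4.24 in RXRKO. In Cntnap2, which encodes a neurexin-like protein, a region 14657 bp from the nearest WT H3K4me1 peak had H3K4me1 folds of 4.12 and 5.66 and neither other mark. At Pcsk2, a prohormone convertase gene, 3 gained regions lay 42990 to 45470 bp from any WT H3K4me1 peak, and 2 of them carried H3K4me3 in both RXRKO and WT. A region far from WT H3K4me1 was thus not always without marks in WT.

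Of 20 stromal and endothelial markers, 4 had a gained and 3 a lost region, with 2.79% of merged regions gained and 1.39% lost. Among them was Cdh5, the VE-cadherin gene, with 3 gained regions. Of 29 genes of H3K4 methylation and acetylation enzymes and their partners, 9 had a gained and 5 a lost region. The 9 included the acetyltransferase genes Ep300 and Crebbp, the methyltransferase gene Kmt2c and the corepressor gene Ncor1. These 29 genes had a median of 15 merged regions each, against 8 over all genes. Their share gained was 2.06%, close to the 2.08% near all genes, and 1.13% were lost. Of 26 interferon and inflammation genes, 4 had a gained region, Stat2, Stat3, Il1b and Nfkb1, and 4 a lost one, with 1.59% gained and 1.91% lost. Of 22 kidney, liver and gut genes, 1 had a gained and 2 a lost region, with 0.763% gained and 1.53% lost. Of 24 housekeeping genes, 3 had a gained and 6 a lost region, with 1.54% gained and 2.32% lost.

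**Figure D5:**
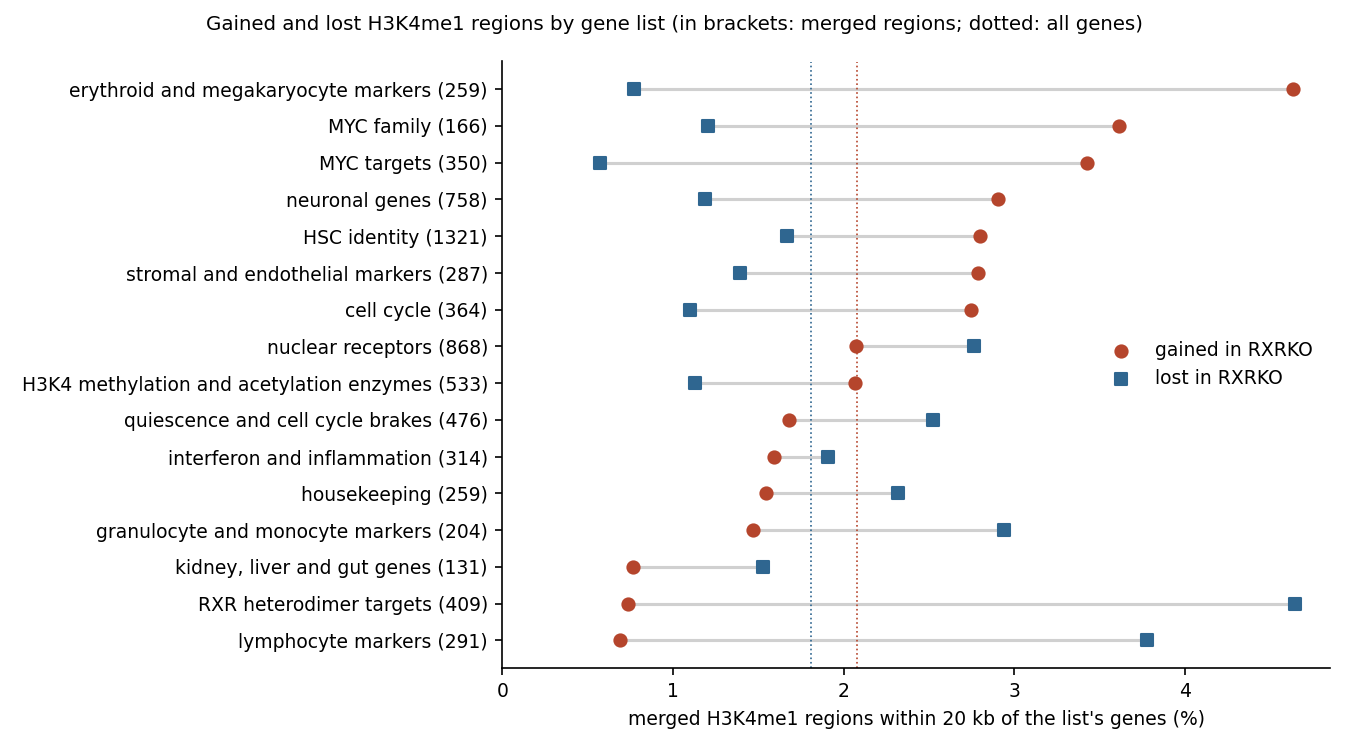
For each gene list, the red circle gives the percentage of the merged H3K4me1 regions within 20 kb of its genes that were gained in RXRKO and the blue square the percentage lost, with the number of merged regions in brackets. Dotted lines stand at 2.08% gained and 1.81% lost near all protein-coding genes, and the erythroid and megakaryocyte markers have 4.63% gained and 0.772% lost, against 0.733% and 4.65% for the RXR heterodimer targets.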

How the data were processed

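Peak lists of 8 mouse HSC libraries were analysed. Per the submitters' processing notes, the authors used cutadapt 1.7.1, Bowtie2 2.2.5 and MACS3 on mm10. For the MACS3 version, a control library, duplicates and spike-in, nothing is given in the sources used here. The deposited lists hold, per peak, the authors' fold (a ratio), -log10 p-value and -log10 q-value and a display score. They hold q under 0.05 and no read counts, so depth is unknown and no interval or test is given. Peaks were called per library.

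Regions were merged, counted and placed on RefSeq genes (GRCm38.p6, chromosome 18 starts not used) with Python 3.11.15, numpy 2.4.6, pandas 2.3.3 and matplotlib 3.10.9, and the merging was checked on simulated data. A region's value is the highest fold or -log10 q of a library's peaks on it. H3K27Ac and H3K4me3 counted as called with 1 bp of overlap. Named regions are the 15 with the highest lower RXRKO -log10 q, the 10 with the highest H3K27Ac and 5 with the highest H3K4me3 -log10 q among those with the mark in RXRKO only, the 10 widest, and the 5 densest windows of 100 kb. Named genes are the 10 with most gained regions and list members with one. A region takes the name of the gene that holds it, otherwise of the nearest within 100 kb. Members and lists were chosen with earlier results of these data known. Alternatives changed the peak thresholds, the merging, the overlap, the gene window and the libraries used. Some list members are not reported here.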

Additional observations from a re-analysis of the deposited data

How the results depend on the processing

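The number of gained regions, 3926, was 1079 with a fold of at least 4 required in every H3K4me1 list, 7724 to 20506 with 1 library left out, 14517 within replicate 1 and 28697 within replicate 2. The number of genes with one, 3282, was 798, 6078 to 9764, 9505 and 11862 under these settings and 5169 with 50 kb around the gene. The number of gained regions with H3K27Ac in RXRKO only, 289, was 168 when both RXRKO libraries had to cover at least 0.5 of the region, 372 to 661 with 1 library left out, 663 within replicate 1, 1131 within replicate 2 and 91 for H3K27Ac peaks with a fold of at least 4. The number with H3K4me3 in RXRKO only, 98, was 143 to 340 with 1 library left out, 356 within replicate 1, 564 within replicate 2, 48 with the same number of H3K4me3 peaks from each genotype and 34 for H3K4me3 peaks with a fold of at least 4. Leaving out a library removes a requirement, which by construction raises the number, and for the other changes the cause was not tested. The settings not listed here left these 4 numbers within 1.5 times. RXRKO-only regions outnumbered WT-only regions in 15 of 15 settings for each mark. The settings draw on the same peak lists, so they are not separate tests. For H3K4me3 the same order held over all merged regions, at 6.82% against 1.33%, so it is not particular to the gained regions. No paired analysis was possible because no result comes from a test that could take a replicate block, and the genotypes are set side by side within each replicate instead, as given above. The lists give no read totals, so weak H3K4me1 in WT cannot be told from none, and H3K27Ac and H3K4me3 had 1 library per genotype.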
